A study of Mus musculus with 9 samples.

Results

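The Zscan4 genes are a family of near-identical copies on mouse chromosome 7. Zscan4a, Zscan4b, Zscan4c and Zscan4f are followed here across 3 genotypes of mouse embryonic stem cells (mESCs). They were taken as every non-control probe of the array whose RefSeq accession or symbol belongs to 1 of these 4 genes, which gave 7 probes of the 55681 on the array: 2 for Zscan4a, 1 for Zscan4b, 3 for Zscan4c and 1 for Zscan4f. The family was picked with its levels on these arrays already known, so the values below describe it and no test of its own is given. The study asked which effects of losing RING1B in mESCs depend on its ubiquitin ligase activity. Polyadenylated RNA was labelled with Cy3 and hybridised to 1-colour Agilent mouse arrays, 1 array per sample and 3 samples per genotype. The KO cells (Ring1B-/-) carry a deletion of exon 3 in Rnf2, which encodes RING1B, and make no RING1B. The I53A cells (Ring1B I53A/I53A) make RING1B with an alanine in place of the isoleucine that contacts the E2 enzyme, which leaves the protein in its complexes without ligase activity. The WT cells are the parental E14Tg2a line, a male line of 129P2/OlaHsd origin from which both mutants were derived, and all cells were grown in serum with LIF. No independent lines of either mutant genotype are described for the arrays, so a difference between groups may belong to a line and not to its mutation. Each group's arrays also stood in a column of their own on the slides, and column and genotype cannot be told apart.

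Zscan4 proteins carry a SCAN domain and zinc fingers and are found in the nucleus. Their genes switch on in the 2-cell mouse embryo, when the embryo's own genome is first transcribed. In mESC cultures a small and changing fraction of cells expresses them at any time, together with other 2-cell transcripts, and the genes are known for a burst of telomere lengthening by recombination in those cells. In mice Zscan4c is best known from mESCs and Zscan4d from the 2-cell embryo. In RNA from whole cultures, more cells with Zscan4 transcripts and more transcript per cell cannot be told apart.

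The RefSeq annotation of GRCm38.p6 places 9 Zscan4 copies in 820 kb of chromosome 7, from position 10794241 to 11614112. The 4 protein-coding copies are Zscan4b (10900740 to 10905050), Zscan4c (11005745 to 11010547), Zscan4d (11161643 to 11166148) and Zscan4f (11397915 to 11402318). Zscan4a (10794241 to 10799065) is annotated as a transcribed pseudogene. Zscan4d, Zscan4e and the pseudogenes Zscan4-ps1, Zscan4-ps2 and Zscan4-ps3 had no named probe, so 5 copies were not measured under their own names. The copies are alike enough that a probe named for one can capture RNA of another, and each value below is that of a probe and not of 1 gene alone.

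The sequences before the start sites show how alike the copies are. The 250 bases ahead of the annotated start of 3 of the 4 genes are given here from RefSeq (GRCm38.p6). They run 5′ to 3′ on the strand of the gene and are shown because the probes named for these genes moved together. Capitals mark, in order, TGACCTTG (the site of the nuclear receptors ESRRB and NR5A2), TATAAA (the TATA box) and CCAAT (the CCAAT box).
Zscan4b, chr7:10905051-10905300, minus strand: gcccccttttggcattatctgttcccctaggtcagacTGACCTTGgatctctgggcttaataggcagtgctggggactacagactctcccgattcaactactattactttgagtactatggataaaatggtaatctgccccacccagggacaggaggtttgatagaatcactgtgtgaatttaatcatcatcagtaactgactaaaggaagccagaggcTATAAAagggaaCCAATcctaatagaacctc
Zscan4c, chr7:11005495-11005744, plus strand: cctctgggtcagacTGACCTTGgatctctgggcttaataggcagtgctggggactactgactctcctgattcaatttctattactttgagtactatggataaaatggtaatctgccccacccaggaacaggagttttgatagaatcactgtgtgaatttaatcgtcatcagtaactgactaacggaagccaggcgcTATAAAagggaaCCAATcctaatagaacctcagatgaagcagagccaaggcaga
Zscan4f, chr7:11397665-11397914, plus strand: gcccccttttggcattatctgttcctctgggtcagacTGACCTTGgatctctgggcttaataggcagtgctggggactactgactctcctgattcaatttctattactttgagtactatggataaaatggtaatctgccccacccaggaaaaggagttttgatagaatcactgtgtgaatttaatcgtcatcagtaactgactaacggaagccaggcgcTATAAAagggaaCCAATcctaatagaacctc

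The windows of Zscan4c and Zscan4f were 99.6% identical over 227 aligned bases, with 1 difference, and those of Zscan4b and Zscan4c were 94.7% identical over the same number of aligned bases. Over all 6 pairs of the 4 copies with a window, Zscan4d included, identity lay between 94.7% and 99.6%. All 4 windows held the 3 motifs, which do not overlap. On either strand, TGACCTTG was in 1.33%, TATAAA in 12.4% and CCAAT in 33.8% of all 32851 promoter windows of this length. The TATA box began 31 bases before the annotated start in Zscan4b and in Zscan4f but 54 bases before it in Zscan4c, so the annotated starts do not mark the same base of the shared sequence. None of the 4 windows held GATTNAATC, a core of the site of the 2-cell factor DUX (0.247% of all windows), the octamer ATGCAAAT (1.6%) or TGCACAC, a site reported for ZSCAN4 itself (3.67%). A match or its absence describes these letters only.

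Only Zscan4a probe 1 is in the table of normalised values that the authors deposited, which also holds its sequence, printed here because it shows what was hybridised.
Zscan4a probe 1, chromosome 7: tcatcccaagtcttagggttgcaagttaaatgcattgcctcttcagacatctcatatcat
By accession this probe belongs to Zscan4a, but the deposited table assigns it a gene starting at position 11166148, which is the annotated start of Zscan4d. Which of the copies it reads was not settled, and it is called Zscan4a probe 1 here.

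All values are log2 of the background-subtracted intensity after quantile normalisation of the 9 arrays. A probe called not well above background is one whose spot the scanner software did not set clearly above its surroundings. Levels of different probes cannot be set against each other, because probes differ in how strongly they bind.

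Zscan4f, a protein-coding copy active in mESCs, read 11.01, 10.91 and 10.21 on the KO arrays 1, 2 and 3, 8.85, 8.45 and 8.59 on the I53A arrays, and 3.35, 3.56 and 3.72 on the WT arrays. The 3 groups did not overlap, and the WT spots were not well above background on any array. In processed intensity units before normalisation, the same spots read 2170, 2130 and 1420 in KO cells, 474, 321 and 425 in I53A cells, and 11.7, 9.28 and 13.3 in WT cells.

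Zscan4b, also protein-coding, read 10.98, 11.23 and 11.29 in KO cells, 8.96, 8.91 and 9.47 in I53A cells, and 4.31, 5.05 and 4.68 in WT cells. Again KO lay above I53A and I53A above WT on every array, with a gap of 1.51 between the lowest KO and the highest I53A array. None of the WT spots was well above background.

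Zscan4c, the copy best known from mESCs, had 3 probes. Its probe 1 read 10.18, 9.65 and 9.50 in KO cells, 8.67, 7.56 and 8.45 in I53A cells, and 3.98, 3.81 and 4.35 in WT cells. It was the member probe with WT signal well above background on all 3 arrays. Its 3.81 on WT array 2 was also the lowest signal of any probe called well above background on that array. Probe 3 read 8.85, 9.24 and 9.09 in KO cells, 7.24, 7.02 and 7.56 in I53A cells, and 4.22, 3.11 and 3.32 in WT cells. The groups stood apart on both probes. Probe 2 read 8.45, 9.89 and 8.62 in KO cells, 7.14, 6.23 and 7.03 in I53A cells, and 5.61, 5.70 and 4.77 in WT cells, where WT array 3 was not well above background. This probe kept the same order without overlap, but its gap between I53A and WT was 0.53, against 3.22 for probe 1 and 2.80 for probe 3, so the 3 probes named for Zscan4c differed in the size of the change.

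Zscan4a, the transcribed pseudogene, had 2 probes. Probe 1 read 8.63, 9.37 and 8.35 in KO cells, 6.44, 6.41 and 7.10 in I53A cells, and 2.61, 5.74 and 3.75 in WT cells. WT array 2 was the array well above background there and lay within 0.67 of the lowest I53A array. Probe 2 read 7.67, 8.0 and 7.70 in KO cells, 5.62, 4.54 and 6.26 in I53A cells, and 3.09, 4.75 and 3.25 in WT cells. Here I53A and WT overlapped: I53A array 2, not well above background, lay 0.21 below WT array 2. In the authors' own normalised values, probe 1 averaged 8.80 ± 0.53 in KO cells, 6.66 ± 0.38 in I53A cells and 4.05 ± 1.58 in WT cells (SD, n = 3 each).

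**Figure D1:**
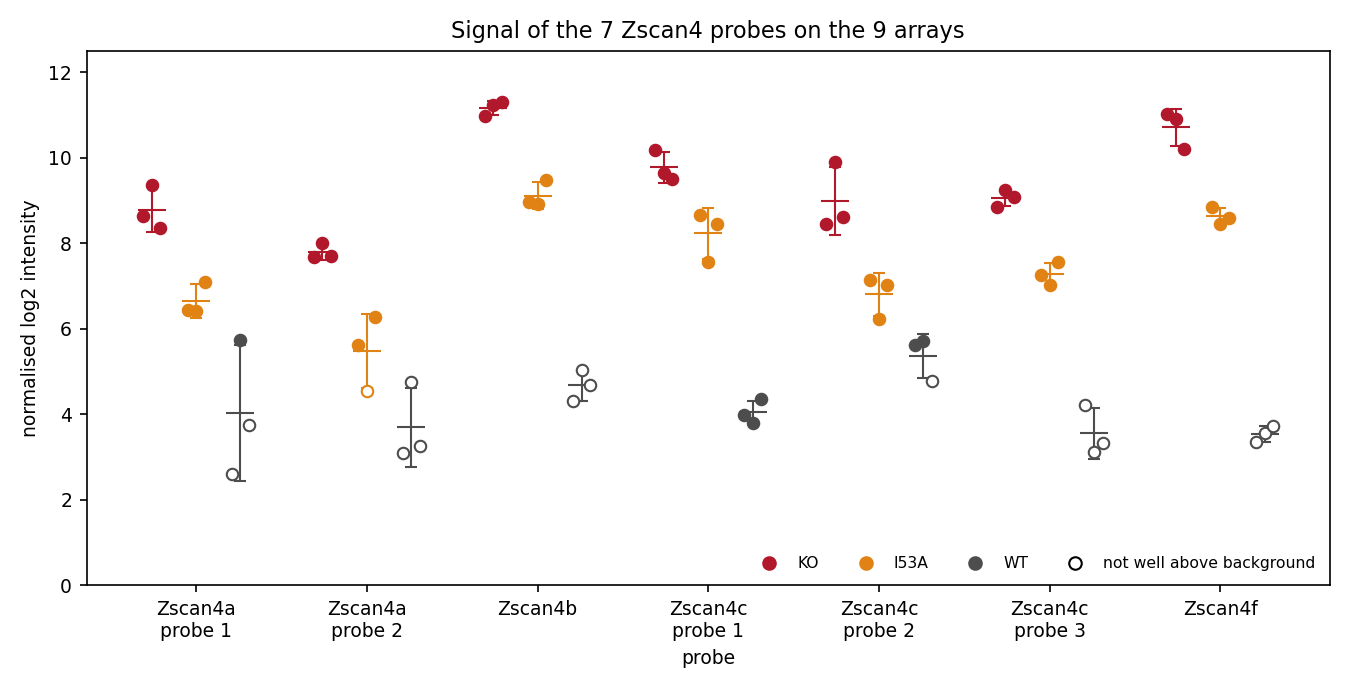
Normalised log2 intensity (y axis) of each of the 7 Zscan4 probes (x axis) on the 3 KO, 3 I53A and 3 WT arrays; points are arrays, bars are group means ± SD, and open points are spots not well above background. KO points lie highest and WT points lowest for each probe, with I53A between, and the groups overlap only for I53A and WT at Zscan4a probe 2.

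The order of the groups was thus KO, then I53A, then WT for each of the 7 probes. Averaged over the 7 probes, the log2 signal was 9.47 ± 0.26 in KO cells, 7.45 ± 0.39 in I53A cells and 4.13 ± 0.35 in WT cells (SD, n = 3 arrays each). By array these averages were 9.40, 9.75 and 9.25 in KO cells, 7.56, 7.02 and 7.78 in I53A cells, and 3.88, 4.53 and 3.98 in WT cells. The lowest KO average lay above the highest I53A average, and the lowest I53A average above the highest WT average.

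Within a group, the same array was often the highest or lowest for several probes. I53A array 2 was the lowest I53A array for 7 of the 7 probes. WT array 2 was the highest WT array for 4 of them, and KO array 2 the highest KO array for 4. The share of all non-control spots well above background was 45.6% on I53A array 2, beside 49.5% and 51.0% on the other I53A arrays, and 39.2% on WT array 2, beside 48.1% and 44.6% on the other WT arrays. The part of this share in the Zscan4 values was not tested.

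Relative to WT, the KO cells had higher signal at every probe of the family. The log2 fold change (log2FC) of KO against WT was 7.17 (standard error, SE, 0.27) for Zscan4f and 6.49 (SE 0.27) for Zscan4b. For Zscan4c it was 5.73 (SE 0.33), 3.62 (SE 0.43) and 5.51 (SE 0.31) for probes 1, 2 and 3. For Zscan4a it was 4.75 (SE 0.64) and 4.10 (SE 0.50) for probes 1 and 2. The median of the 7 was 5.51, or 5.04 with bounds for the dim probes, beside -0.05 over all probes. As folds these were at least 127-fold for Zscan4f, at least 89.6-fold for Zscan4b, at least 33.0-fold for Zscan4c probe 3 and at least 13.9-fold for Zscan4a probe 2. The words at least are used where the WT signal was not well above background on any array. Such signal was raised, where lower, to the lowest signal above background on that array. No WT value of Zscan4b was lower, so its folds are the plain estimates and not sure minima. Zscan4c probe 1 was 53.1-fold, Zscan4c probe 2 12.3-fold and Zscan4a probe 1 26.9-fold higher in KO cells. Zscan4a probe 1 moved with single WT arrays, and its log2FC was 5.60 without WT array 2 and 4.04 without WT array 1. In limma, 7 of the 7 probes passed an adjusted p under 0.05 with a change of more than 2-fold, where 1.78% of all probes were called higher and 0.614% lower, and on 7 of 7 every KO array lay above every WT array, as on 9.02% of all probes. The family was picked with its levels in all groups known, so nothing is read from these counts or from those of the comparisons below.

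Against the same WT arrays, the I53A cells had a higher mean signal at every probe, with smaller differences. The log2FC of I53A against WT was 5.09 for Zscan4f, 4.43 for Zscan4b, 4.18, 1.44 and 3.72 for Zscan4c probes 1, 2 and 3, and 2.62 and 1.78 for Zscan4a probes 1 and 2, with the same SEs as above because the fit shares them. The median was 3.72, or 3.26 with bounds for the dim probes, beside -0.03 over all probes. These were at least 30.0-fold for Zscan4f, at least 21.6-fold for Zscan4b, 18.2-fold for Zscan4c probe 1 and at least 9.57-fold for Zscan4c probe 3. Zscan4a probe 1 was 6.13-fold and Zscan4c probe 2 was 2.71-fold higher. Zscan4a probe 2 was 2.80-fold higher with its lower WT spots raised, which is no lower limit because I53A array 2 was dim too. For Zscan4a probe 1 the log2FC was 3.47 without WT array 2 and 1.91 without WT array 1. Of the 7 probes, 4 were called higher (Zscan4b, Zscan4c probes 1 and 3, and Zscan4f), beside 0.154% of all probes called higher and 0.0431% called lower. On 6 of 7, every I53A array lay above every WT array, as on 6.46% of all probes. With the arrays of slide 1 alone, 2 per group, 2 of these 4 calls were kept. Set beside the KO difference on the log2 scale, the I53A difference amounted to 73.0% of it for Zscan4c probe 1. That probe had WT signal above background on every array, though at the lowest such level on WT array 2. The share was 39.7% for Zscan4c probe 2 and 55.1% for Zscan4a probe 1, with WT spots above background on 2 and 1 of 3 arrays. Such shares have no exact value for the probes whose WT spots were all dim. Both differences use the same WT arrays.

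Directly compared, KO signal was higher than I53A signal at every probe, by log2FCs that lay close together: 2.08 for Zscan4f, 2.05 for Zscan4b, 1.55, 2.18 and 1.79 for Zscan4c probes 1, 2 and 3, and 2.13 and 2.32 for Zscan4a probes 1 and 2. The median was 2.08, beside -0.03 over all probes, and the folds ran from 2.92 to 4.99. This comparison is the one least limited by dim spots, since every KO spot and all I53A spots but 1 were well above background. On 7 of 7 probes every KO array lay above every I53A array, as on 5.94% of all probes. Calls were made for 4 of 7 (Zscan4b, Zscan4c probes 2 and 3, and Zscan4f), beside 0.726% of all probes called higher. The Zscan4c probe 2 call was lost when any of the 9 arrays was left out and the Zscan4c probe 3 call when any KO or I53A array was, and 0 of the 4 calls were kept with slide 1 alone.

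**Figure D2:**
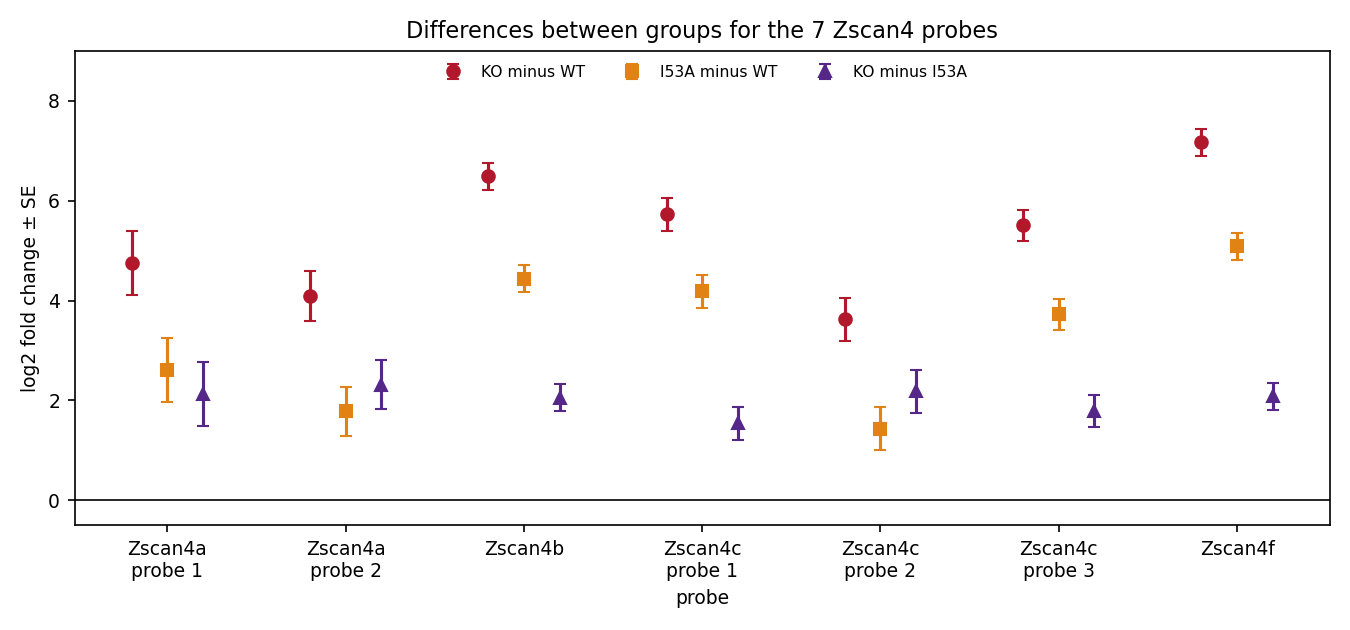
Log2 fold change ± SE (y axis) of KO minus WT, I53A minus WT and KO minus I53A for each of the 7 Zscan4 probes (x axis). KO minus WT runs from 3.62 to 7.17 and I53A minus WT from 1.44 to 5.09, while KO minus I53A stays between 1.55 and 2.32.

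The arrays lay on 2 slides, and the differences held on each. On slide 1 (2 arrays per group) KO minus WT ran from 3.60 to 7.10 over the 7 probes and I53A minus WT from 1.03 to 5.19. On slide 2 (1 array per group) KO minus WT ran from 3.67 to 7.29 and I53A minus WT from 2.26 to 4.87. KO minus I53A ran from 1.46 to 2.77 on slide 1 and from 1.29 to 2.42 on slide 2.

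Each array held 62976 spots, with 39.2% to 51.0% of the non-control spots well above background, 5 to 9 saturated and 0.400% to 0.548% flagged as outliers. No Zscan4 spot was flagged as an outlier. The number of arrays limits the precision. The probe for Rnf2, the targeted gene, read 7.35, 7.92 and 8.08 in KO cells, 8.69, 9.10 and 8.59 in I53A cells, and 8.32, 8.27 and 8.47 in WT cells. KO arrays lay below WT arrays, with a log2FC of -0.57 (SE 0.26) that limma did not call (adjusted p = 0.373). Whether this probe lies in the deleted exon is not known here, so it does not check the labels. The ES cell markers (10 of 10 well above background on every array of each group, 0 called by limma in any of the 3 comparisons) were those of the labelled cell type. Without adjustment, p was below 0.05 for 5 higher and 2 lower in KO, 2 lower in I53A and 3 higher in KO against I53A.

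Transcripts of the 2-cell stage other than Zscan4 were compared as a list of 48 genes, 35 of which had a probe, each gene read by its brightest probe. In KO cells 19 of the 35 rose against WT in limma and 0 fell (22 and 0 with an unadjusted p below 0.05), where 2.73% of all named genes were called higher and 0.926% lower. Their median log2FC was 1.71, beside -0.02 over all named genes. In I53A cells 3 of the 35 rose (AF067061, Gm4340 and Gm2022) and 0 fell (14 and 0 without adjustment), where 0.232% of all named genes were called higher and 0.0709% lower, with a median of 0.35. In KO against I53A, 16 of the 35 were called higher, where 0.983% of all named genes were, with a median of 1.30, but 9 without I53A array 1 and 10 without I53A array 2. Members of the list are also partly copies of one another, as the Zscan4 genes are.

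AF067061, a 2-cell transcript on chromosome 13, read 10.56, 10.69 and 10.64 in KO cells, 7.55, 7.14 and 8.15 in I53A cells, and 3.23, 3.45 and 3.13 in WT cells. The groups did not overlap, and it was at least 123-fold higher in KO (limma, adjusted p = 6.12e-07) and at least 15.3-fold higher in I53A (adjusted p = 0.000109), each against WT. Gm2022, an Eif1a-like gene on chromosome 12, was at least 78.3-fold higher in KO (adjusted p = 6.12e-07) and was also called higher in I53A (adjusted p = 0.000109). Gm4340, on chromosome 10, was at least 43.2-fold higher in KO (adjusted p = 3.18e-06) and was also called higher in I53A (adjusted p = 0.000177). The next 3 by size in KO were called there and not in I53A, and the WT spots of all 6 genes were not well above background. Gm8300 was at least 25.4-fold higher in KO (adjusted p = 3.27e-05), with I53A above background on 1 of 3 arrays (adjusted p = 0.066 against WT). Gm21319 was at least 14.4-fold higher in KO (adjusted p = 0.000454), with I53A again above background on 1 of 3 arrays (adjusted p = 0.324). Tdpoz4, which encodes a TRAF and BTB/POZ domain protein, was at least 8.92-fold higher in KO (adjusted p = 1.54e-05), and no I53A spot was above background. For these 3 genes KO was also called higher than I53A, by 9.47-fold, 8.11-fold and at least 7.65-fold, but the Gm21319 call was lost without KO array 1 or 3 or without I53A array 1 or 2.

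Regulators reported to raise Zscan4 numbered 16, 14 of them with a probe. In KO cells 2 of 14 rose and 0 fell (3 and 0 with an unadjusted p below 0.05), where 2.73% of all named genes were called higher: Tbx3, a T-box factor, by a log2FC of 1.84 (limma, adjusted p = 0.00742), and Dppa3, a maternal factor of the early embryo, by 1.31 (adjusted p = 0.0425). The Tbx3 call was kept when any single array was left out but lost with slide 1 alone and under another background correction (normexp). The Dppa3 call was lost when any single array other than I53A array 3 was left out. In I53A cells 0 of 14 passed in either direction by limma, also without adjustment. The other gene with an unadjusted p below 0.05 in KO, Duxbl1, a double homeobox gene named after its values were seen, had a log2FC of 1.03 (adjusted p = 0.0952). Dppa2 and Dppa4, partner proteins that act upstream of Dux and Zscan4 in mESCs, had log2FCs of 0.36 and -0.56 in KO and 0.17 and 0.20 in I53A, none called. Dux itself had no probe, and Gata2 was not well above background on any array.

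Regulators reported to restrain Zscan4 or the 2-cell state numbered 44, all with a probe. In KO cells 1 rose (Bcor, a subunit of a variant PRC1, log2FC 1.32, limma, adjusted p = 0.0308) and 0 fell (2 and 3 without adjustment), a share near the 2.73% of all named genes called higher. The Bcor call was lost when any WT array, KO array 2 or 3, or I53A array 2 was left out. In I53A cells 0 of 44 passed in limma, while 1 was higher and 2 lower at an unadjusted p below 0.05. Dnmt3a was not well above background on any array.

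Of 25 telomere and recombination genes, 1 was called higher and 0 lower in each comparison. Of all named genes, 2.73% were called higher in KO, 0.232% in I53A and 0.983% in KO against I53A. Without adjustment, p was below 0.05 for 3 higher and 4 lower of the 25 in KO and for 1 and 2 in I53A. In KO against I53A these counts were 3 and 1. Tex19.1, a germline gene that restrains transposons, read 10.87, 10.86 and 10.80 in KO cells, 9.22, 9.24 and 9.18 in I53A cells, and 7.91, 7.93 and 7.89 in WT cells. The groups stood far apart, and it was called higher in KO (log2FC 2.93, limma, adjusted p = 2.93e-05), in I53A (1.31, adjusted p = 0.034) and in KO against I53A (1.63). The I53A call was lost when any of the 9 arrays was left out. The other 24 genes were not called, among them Terf1, a telomere repeat-binding protein, with log2FCs of 0.39 in KO and 0.37 in I53A. Pot1b, Terc, Tep1, Tnks, Nbn and Wrn were not well above background on any array, so no change of theirs could be read. Other SCAN domain zinc finger genes, the wider family of Zscan4, gave 0 calls among 26 measured in each comparison by limma. Without adjustment, p fell below 0.05 for 1 higher and 1 lower gene in KO, for 0 in I53A, and for 3 higher genes in KO against I53A. Of this list Zscan5b, Zscan25, Zkscan2, Zkscan4, Zkscan6 and Peg3 were not well above background on any array.

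**Figure D3:**
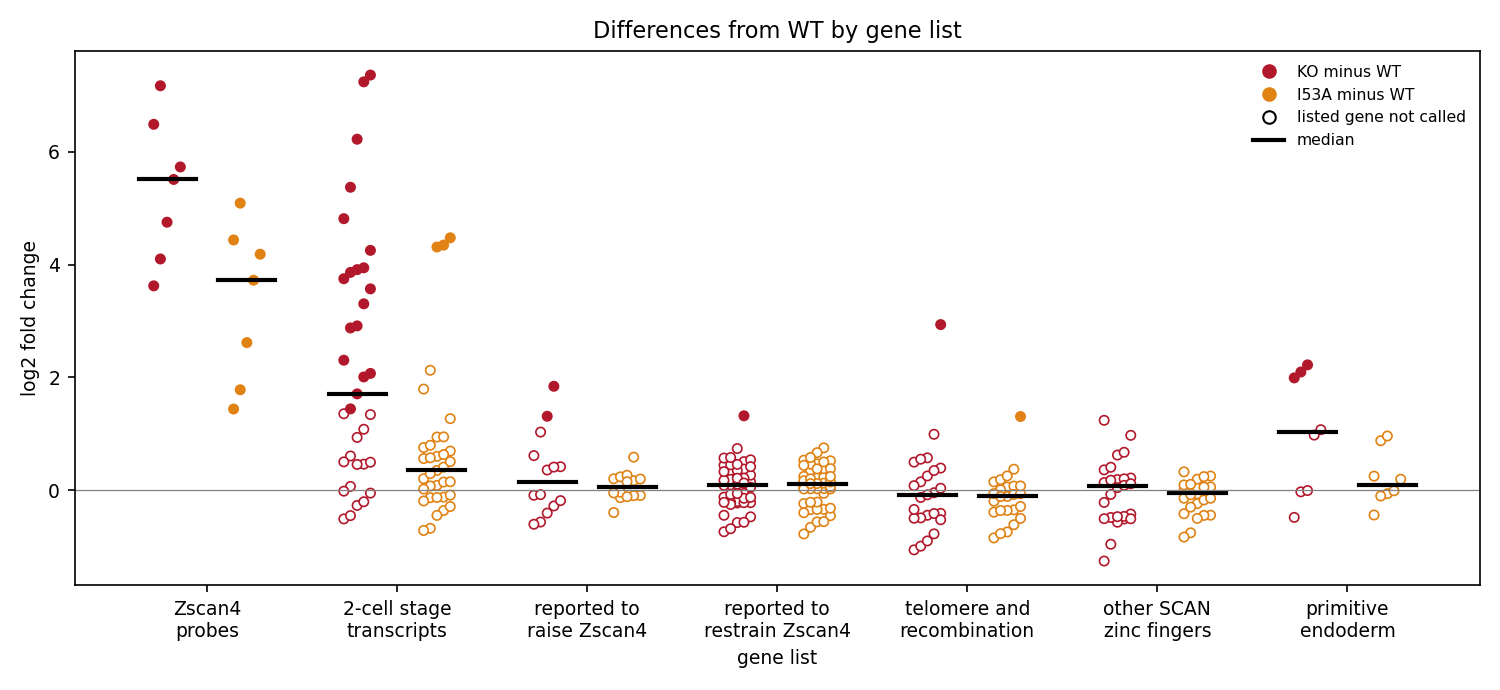
Log2 fold change (y axis) of KO minus WT and I53A minus WT for the 7 Zscan4 probes and for the genes of 6 lists (x axis); points are probes or genes, filled where called for the listed genes, and bars are medians. The 2-cell stage list has 19 genes called in KO and 3 in I53A, and the regulator, telomere and SCAN lists hold at most 2 calls each.

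Genes with profiles most like the family's were ranked among 24607 probes, the family's own left out, well above background on every array of at least 1 group. The measure was the root mean square (RMS) difference, over the 9 arrays, between a probe's log2 values and the mean of the 7 Zscan4 probes, each centred on its own mean. Named genes were taken in order, each at its nearest probe. The 10 nearest were Gm2016 (RMS 0.37), Tuba3a, Slc4a5, AF067061, BB287469, Gm4312, Gm4340, Gm4303, Fkbp6 and Syce1 (RMS 0.65), at places 5 to 23 among all these probes, since the probes between them and ahead of them have no gene name here or belong to genes already listed. The 7 Zscan4 probes themselves lay between 0.46 and 0.92, and the median probe at 2.27. Gm2016 and BB287469, Eif1a-like genes, and AF067061 and Gm4340 are 2-cell transcripts. Tuba3a encodes an alpha-tubulin, Slc4a5 a bicarbonate transporter, and Fkbp6 and Syce1 proteins of meiotic chromosome pairing. This Gm2016 probe averaged 8.61 ± 0.44 in KO cells, 6.33 ± 0.75 in I53A cells and 2.77 ± 0.19 in WT cells (SD, n = 3 each). The gene's brighter probe averaged 13.74, 12.36 and 11.67 in KO, I53A and WT cells, the same order of group means. On that probe I53A array 2 (11.86) lay below WT array 1 (12.03). It was called higher in KO (log2FC 2.07) but not in I53A (0.69, limma, adjusted p = 0.647). Tuba3a averaged 10.69 ± 0.19 in KO cells, 8.46 ± 0.76 in I53A cells and 5.58 ± 0.62 in WT cells, and Syce1 10.15 ± 0.39, 8.97 ± 0.63 and 6.05 ± 0.33 in KO, I53A and WT cells. These genes were chosen for their pattern and no test is given.

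**Figure D4:**
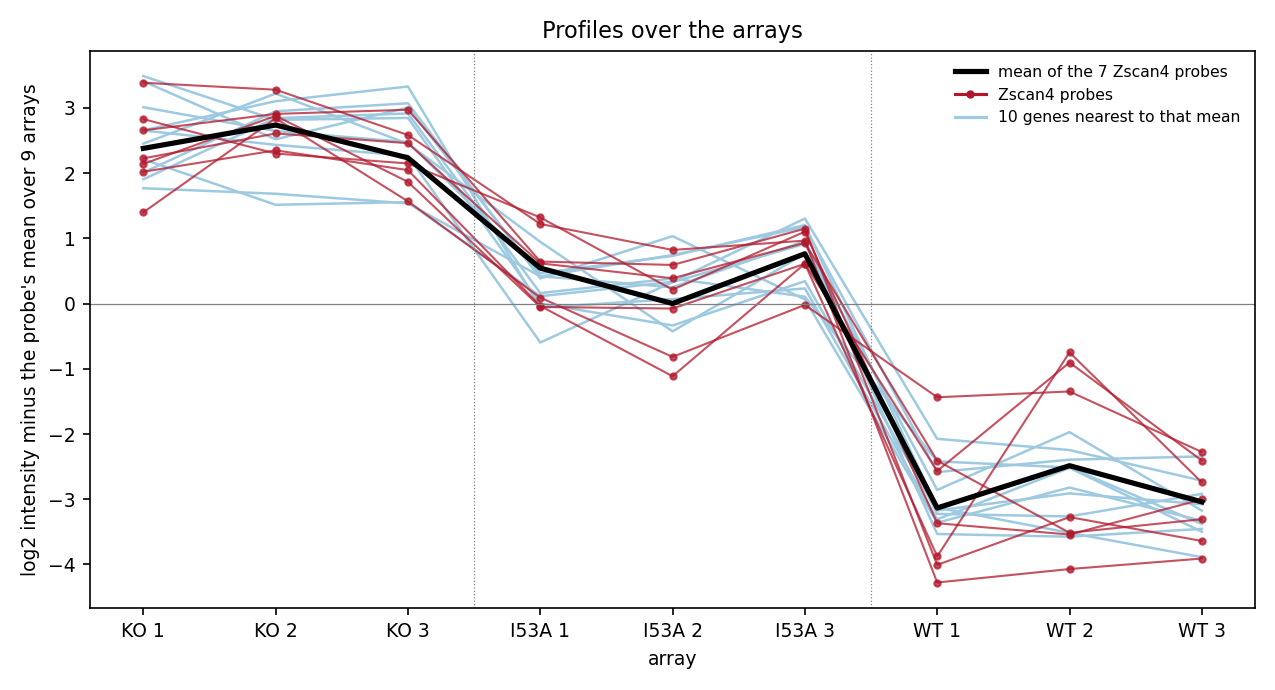
Log2 intensity minus each probe's mean over the 9 arrays (y axis) for the 7 Zscan4 probes, their mean and the 10 nearest genes, by array (x axis); each line joins the values of 1 probe, and arrays of a group have no order. KO arrays lie highest and WT arrays lowest for each line drawn, except that I53A array 2 lies below WT array 2 for Zscan4a probe 2.

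The genes beside the cluster were read the same way. Within 1 Mb of the cluster on either side, 29 genes had a probe, mostly vomeronasal receptor genes (Vmn1r and Vmn2r), and 19 of them were not well above background on any array. In each comparison limma called 0 of the 29, where 2.73% of all named genes were called higher in KO and 0.232% in I53A. Without adjustment p was below 0.05 for 1 higher and 1 lower neighbour in KO, the same counts in I53A, and 0 in KO against I53A. Their log2FC ran from -1.02 to 1.05 in KO and from -1.23 to 0.78 in I53A, each against WT. Vmn1r71 and Vmn1r72, the nearest measured genes on either side of it, were not well above background on any array, so no change of theirs could be read.

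**Figure D5:**
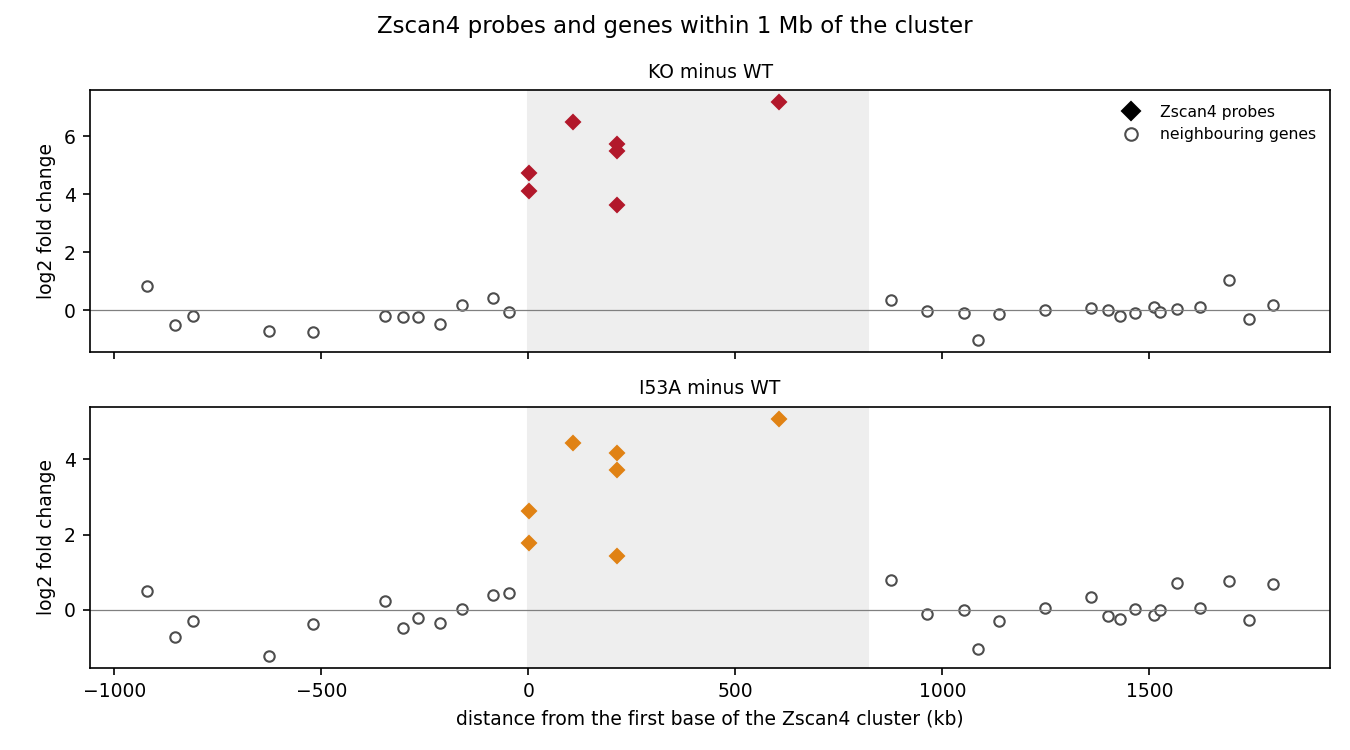
Log2 fold change (y axis) of KO minus WT (upper panel) and I53A minus WT (lower panel) against distance in kb from the first base of the Zscan4 cluster (x axis); diamonds are Zscan4 probes, open circles are genes within 1 Mb, and grey marks the 820 kb cluster. The 29 neighbours lie between -1.23 and 1.05 in both panels, below every Zscan4 probe of the same panel.

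Markers of other cell types were read in the same way. Of all named genes, 2.73% were called higher and 0.926% lower in KO, and 0.232% higher and 0.0709% lower in I53A. Of 8 primitive endoderm markers, Gata6, Gata4 and Sox17 were called higher in KO and 0 in I53A by limma (4 and 2 higher with an unadjusted p below 0.05). In KO Gata6 was 4.27-fold higher. With dim WT spots raised as above, Gata4 was 1.81-fold and Sox17 2.17-fold higher. KO spots of the 3 were well above background on 3, 2 and 1 arrays, so the Gata4 and Sox17 folds are not lower limits. The Sox17 call was lost without WT array 1 or 2. The summed intensity of the 8 was 204 to 261 in KO cells, 95.1 to 108 in I53A cells and 77.4 to 110 in WT cells, with 5, 7 and 7 of the 8 not well above background on any array of the KO, I53A and WT groups. Sox7, Pdgfra, Dab2, Foxa2 and Afp were among these in each group. Of 7 trophoblast markers Plac1 was called higher in KO (at least 2.87-fold, lost without KO array 2 or 3 or WT array 2 or 3) and 0 in I53A (1 and 0 without adjustment), with a summed intensity of 524 to 663 in KO cells, 632 to 719 in I53A cells and 486 to 529 in WT cells, and Elf5, Hand1 and Tpbpa not well above background anywhere. Of 7 fibroblast markers 0 were called by limma (3, 1 and 1 lower with an unadjusted p below 0.05 in KO and I53A against WT and in KO against I53A). Their summed intensity was 245 to 258 in KO cells, 308 to 381 in I53A cells and 378 to 422 in WT cells, and Lum, Pdgfrb and Postn were not well above background anywhere. The part of these cells in the Zscan4 values was not tested.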

How the data were processed

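Signals were measured on 9 Agilent SurePrint G3 mouse arrays, 3 per genotype, grouped by sample title. Per the file headers, the authors extracted each spot with Agilent Feature Extraction 11.5.1.1 as a processed intensity (linear, background subtracted). Their deposited series table holds log2 values after averaging of repeated probes and quantile normalisation for 30170 probes, 1 of them of this family, with their fold changes and p-values, which were not used. Their build was mm10.

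Here control and outlier-flagged spots were left out, log2 was taken of the processed intensities, the spots of 432 repeated probes were averaged, and all 55681 probes were quantile normalised. Probes were named through RefSeq (GRCm38.p6) by accession or symbol, 28047 of 55681 in all. A limma 3.58.1 model in R 4.3.3 that fitted each group's mean (two-sided, with 6 residual degrees of freedom) gave fold changes and Benjamini-Hochberg adjusted p-values over all probes, with calls at an adjusted p under 0.05 and over 2-fold. The model was tested on simulated data. The study calls samples biological replicates, and nothing says that they were separate cultures, so p-values reflect only the spread of these samples, and that may be technical. Titles number the samples 1 to 3, while another label gives all 3 KO samples the number 1.

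Members and gene lists were chosen with earlier results of these data known. Named genes were every member probe, up to 6 called genes of each list by size of change, Rnf2, Dppa2, Dppa4, Dux and Terf1, and the 10 genes nearest in profile. Duxbl1, Vmn1r71, Vmn1r72 and the brighter Gm2016 probe were named after their values were seen. Other listed genes named as not well above background on any array were picked by that. A gene on a list was read by its brightest probe. Alternatives were 75th percentile scaling, normexp background correction, outlier spots kept, dim probes left out, slide as a block, slide 1 only, the replicate number as a block, the authors' values, and each array left out in turn.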

Additional observations from a re-analysis of the deposited data

How the results depend on the processing

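Over 17 alternatives, 9 of them leaving out 1 array, none of the 339 recomputed member log2FCs changed sign, and the lowest were 2.01 for KO against WT, 0.67 for I53A against WT and 1.21 for KO against I53A. Of these, 17 moved by more than 1 SD of that probe, pooled over the 3 groups, all under normexp background correction, run on the median spot and background signals because the files used here hold no mean signal. It lowered the median log2FC of the 7 probes to 2.90 for KO against WT, 1.48 for I53A against WT and 1.68 for KO against I53A, and the calls to 6 and 3 for KO and I53A against WT. Its offset of 50 exceeds most WT member signals, so folds of dim probes shrink by construction. Without 1 array the medians ran from 5.39 to 5.70, from 3.50 to 4.06 and from 1.84 to 2.33, with 7 probes called in KO and 4 to 5 in I53A. With slide 1 only (fewer arrays), 5 probes were called in KO and 2 in I53A. With the replicate block, 7 were called in KO and 4 in I53A, the medians were the same, and the 4 calls for KO against I53A fell to 2 (the cause was not tested). Of 9 same-numbered pairs, 3 deviated together with a correlation over 0.1 (range -0.40 to 0.40 over 18367 probes). Not every array correlated best with its own number. Some same-numbered arrays also shared a slide, so whether the samples were paired was not settled.

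Counts over all probes moved more. Those higher in KO than WT numbered 989, against 354 under normexp, 352 with slide 1 only and 571 to 917 without 1 array, and those lower 342, against 105, 26, 122 to 305 and, with the replicate block, 181. Those higher in I53A than WT numbered 86, against 35 under normexp, 8 with slide 1 only, 39 with the replicate block, 212 with dim probes left out and 41 to 65 without 1 array, and those lower 24, against 1 with slide 1 only, 8 with the block, 81 with dim probes left out and 7 to 18 without 1 array. Those higher in KO than I53A numbered 404, against 191, 113, 242 and 224 to 364 under normexp, with slide 1 only, with the block and without 1 array. Of the 2-cell list, 19 were called in KO, against 12 under normexp and 11 in the authors' table, which holds fewer of these genes, and 16 in KO against I53A, but 8 with the block and 9 to 16 without 1 array. The 3 primitive endoderm calls in KO came to 1 under normexp or with dim probes left out. With 75th percentile scaling the median probe shifted by -0.15 in KO against WT, and the Zscan4 median was 5.55. Family medians could not be computed in the authors' table, which holds 1 of the probes.

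Spots not well above background limit the WT values, so that dim WT spots were raised, where lower, for the folds of 4 of the 7 probes. For Zscan4b none was lower. For Zscan4a probe 2 in I53A a dim I53A spot keeps the fold from being a lower limit. Zscan4a probe 1 was dim on WT arrays 1 and 3. Its 2.61 and 3.75 there lay under the lowest signals above background, 3.20 and 4.02. These values were not raised, which makes its folds against WT larger. Zscan4c probe 2 was dim on WT array 3.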
